A study of Triticum turgidum subsp. durum with 4 samples.

Results

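The miR444 family was taken as every entry of the deposited miRNA table whose name carries this family's number, whatever the species, arm or variant, with 1 member per distinct mature sequence. This gave 20 members among 2111 distinct sequences. The rule uses names and no measured value, although the family itself was picked with earlier results of these data known. The table describes shoots of durum wheat seedlings at 12 days in 4 small RNA libraries, each made from the pooled RNA of 8 seedlings. SWH and SCG came from Line 6 (UAD1301020-8, called L6), a breeding line sensitive to combined water deficit and heat. TWH and TCG came from DBA Aurora, a tolerant commercial variety. WH stands for water-deficit and heat stress applied to the parent plants (SWH and TWH), and CG for unstressed control parents (SCG and TCG). The shoot label could not be checked against marker genes, since only miRNA sequences were measured.

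miR444 is a family known from grasses and other monocots. In rice it directs the cleavage of mRNAs of MIKC-type MADS-box transcription factors related to AGL17, among them OsMADS23, OsMADS27 and OsMADS57, and through them it has been tied to tillering, to the response to nitrate and to antiviral defence. The rice MIR444 genes are unusual in that they lie antisense to their own targets, and the arms of the miRNA hairpin come from separate exons of 1 spliced transcript. In rice, 1 precursor arm can also release miR444 in overlapping phases, called registers, and the endings of names such as miR444b.1 and miR444a-3p.2 refer to these. None of the target mRNAs was measured here.

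The mature sequences below carried most of the family's reads or show its registers. They are printed 5′ to 3′ as the deposited table gives them, as DNA letters, with bases 2 to 8, here called the seed, in capitals.
osa-miR444b.1: tGTTGTCTcaagcttgctgcc
osa-miR444b.1_L-2: tTGTCTCAagcttgctgcc
osa-miR444a-3p.2: tGCAGTTGctgcctcaagctt
hvu-miR444b: tGCAGTTGctgtctcaagctt
osa-miR444f_1ss12CT: tGCAGTTGttgtctcaagctt
osa-miR444a-3p.2_2ss12CT20TC: tGCAGTTGctgtctcaagcct
osa-MIR444c-p3_1: cGGCAAGCtagagacagcaac
osa-MIR444c-p3_2: cGGCAAGCtagagacagcaact
tae-MIR444b-p3: aAGTCGTGcagttgctgcctc
The prefixes name the species whose miRBase entry was matched (osa rice, hvu barley, tae bread wheat, bdi Brachypodium), so an osa name stands for a durum sequence read in these libraries. The suffixes _L-2 and _R-1 mark reads short of the reference by 2 bases at the 5′ end and 1 base at the 3′ end, and ss marks substitutions.

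The seed GCAGTTG was shared by 5 members, which start at the same base of the miR444 arm. These register 2 sequences were osa-miR444a-3p.2, its shortened form osa-miR444a-3p.2_R-1, hvu-miR444b, osa-miR444f_1ss12CT and osa-miR444a-3p.2_2ss12CT20TC. Counted from 1 at the 5′ end, with the base of osa-miR444a-3p.2 first, hvu-miR444b differed by C12T, osa-miR444f_1ss12CT by C9T and C12T, and osa-miR444a-3p.2_2ss12CT20TC by C12T and T20C. All these changes lie outside the seed, and what they do to pairing with targets was not tested. The register 1 sequences start further along the same arm, osa-miR444b.1 by 6 bases and osa-miR444b.1_L-2 by 8 bases, and each has a seed of its own. A further 7 members start 6 to 14 bases before register 2. In all, 14 members lay on the miR444 side of the precursor and 6 on the opposite side. By length, 16 members had 21 nt, 2 had 22 nt, 1 had 20 nt and 1 had 19 nt.

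The windows of durum genome that the deposited table lists for 3 of these sequences show how the registers overlap. They are on build Svevo.v1, with the mature sequence in capitals. The same stretch of the chromosome 2 loci holds both osa-miR444f_1ss12CT (register 2) and osa-miR444b.1 (register 1), whereas osa-miR444a-3p.2 comes from chromosome 6.
osa-miR444f_1ss12CT, chr2A:553187531-553187590, minus strand: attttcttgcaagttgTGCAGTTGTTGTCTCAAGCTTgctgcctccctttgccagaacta
osa-miR444b.1, chr2B:482333044-482333103, minus strand: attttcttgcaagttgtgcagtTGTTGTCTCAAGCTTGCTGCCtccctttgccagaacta
osa-miR444a-3p.2, chr6A:61807312-61807348, plus strand: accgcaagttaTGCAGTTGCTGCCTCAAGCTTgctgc
The members were listed at 15 loci on chromosomes 2A, 2B, 6A, 6B, 7A and 7B, of which 9 hold the miR444 side and 6 the opposite side. In 4 cases the locus lies inside an annotated gene, TRITD_2Av1G199650 on 2A, TRITD_2Bv1G162910 on 2B, TRITD_6Av1G182900 on 6A and TRITD_6Bv1G172370 on 6B. The gene table used gives neither the strand nor the exons of these genes, so orientation, exon and intron are not stated. Since osa-miR444b.1 matched its loci on 2A and 2B without mismatch, and hvu-miR444b those on 7A and 7B, reads could not be divided between the A and B genomes. osa-miR444a-3p.2 matched 4 listed loci on 6A and 6B.

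All 20 members were placed by the authors in the class of reads that map to the genome at loci where the extended sequence folds into no hairpin, a class that held 879 of the 2111 sequences, or 41.6%. Even so, each listed window comes with a folding energy, from -8.2 kcal/mol on 7B to -37.5 kcal/mol on 6B, with a median of -15.1 kcal/mol. The listed loci show arms that are far apart. On each of the 6 chromosomes 1 locus of the miR444 arm had a listed opposite arm on the same strand and upstream of it. The other 3 loci of the miR444 side, 2 on 6A, among them the window of osa-miR444a-3p.2 printed above, and 1 on 6B, had no listed opposite arm near them. The distance between the paired windows was 3180 bases on 2A, 3027 on 2B, 1837 on 6A, 1785 on 6B, 9726 on 7A and 7143 on 7B. In the rice osa-MIR444c reference hairpin of 138 nt the same arms sit close together, with osa-MIR444c-p3_1 at bases 19 to 39 and osa-miR444b.1 at bases 104 to 124. The sequence named p3 is therefore the upstream, 5′ arm there. Folded against each other, osa-miR444b.1 and osa-MIR444c-p3_1 formed 18 base pairs with a predicted energy of -29.3 kcal/mol. The corresponding values were 15 pairs and -25.4 kcal/mol for osa-miR444a-3p.2 with tae-MIR444b-p5_3, and 15 pairs and -22.0 kcal/mol for hvu-miR444b with bdi-MIR444b-p3_2. Arms of different chromosomes could pair as well, since osa-miR444a-3p.2 formed 15 pairs with bdi-MIR444b-p3_2 of chromosome 7 (-24.7 kcal/mol) and with osa-MIR444c-p3_1 of chromosome 2 (-20.0 kcal/mol).

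**Figure D1:**
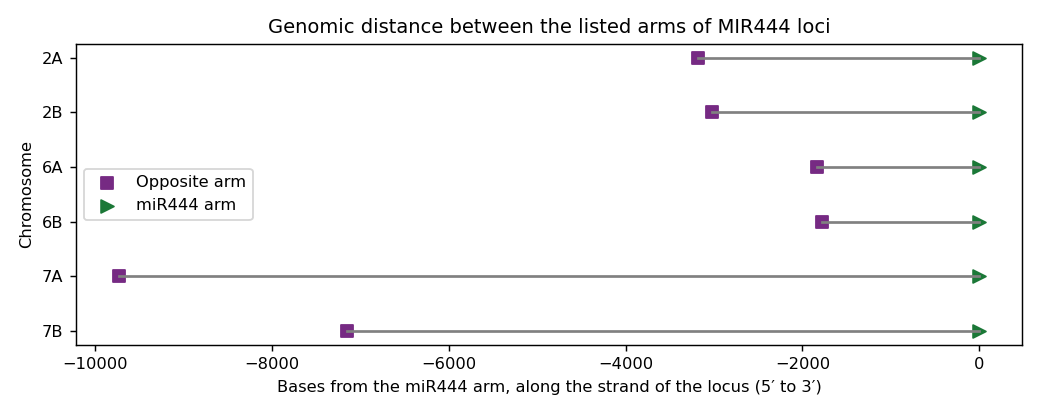
Genomic distance in bases between the listed window of the miR444 arm (triangle, at 0) and that of the opposite arm (square), along the strand of each locus, for 6 chromosomes. The opposite arm is upstream in all 6 pairs, by 1785 bases on 6B up to 9726 bases on 7A.

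The read numbers have a limit that bears on every count below. Members whose names differ only in a final number carried the same read numbers in all 4 libraries, as did all 108 groups of this kind in the whole table (325 sequences). This concerns 8 members, namely tae-MIR444b-p5_1 to _4, osa-MIR444c-p3_1 and _2, and bdi-MIR444b-p3_1 and _2. The 20 members therefore hold 15 different sets of read numbers, and the reads of a shared set cannot be given to 1 of its sequences. In the tae-MIR444b-p5 set the sequences even come from both arms of the tae-MIR444b hairpin of 162 nt, with tae-MIR444b-p5_1 and _3 within bases 24 to 46 and tae-MIR444b-p5_2 and _4 within bases 111 to 136.

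The libraries held 855716 (SWH), 1293324 (SCG), 1096670 (TWH) and 994074 (TCG) miRNA reads. Values are normalised counts, the authors' read numbers times 1 factor per library, which was 1.20 in SWH, 0.833 in SCG, 0.946 in TWH and 1.04 in TCG. With 1 library per seed group there is no replicate spread. Intervals therefore cover counting error only, p-values from a pair of libraries compare the reads of those libraries and not the seed groups, and PCR duplicates cannot be recognised. Because RNA was taken from shoots in bulk, more cells that make a miRNA and more of it per cell cannot be told apart.

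The register 1 sequence osa-miR444b.1 was the most abundant member in all 4 libraries. It had a normalised count of 12021 in SWH and 8412 in SCG, and of 9595 in TWH and 7045 in TCG. Both WH libraries exceeded both CG libraries, and SWH was highest. It ranked 17th of all sequences in SWH, 28th in SCG, 24th in TWH and 29th in TCG. Its shortened form osa-miR444b.1_L-2 had normalised counts of 947 in SWH, 490 in SCG, 668 in TWH and 535 in TCG, again with both WH libraries above both CG libraries.

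The opposite arm of the same chromosome 2 loci, osa-MIR444c-p3, was second, with normalised counts of 5533 in SWH, 4074 in SCG, 5048 in TWH and 4442 in TCG. Each WH library exceeded its CG library here too, although the libraries lay closer together than for osa-miR444b.1. Such an opposite arm is usually degraded after the duplex is loaded, yet it reached 0.460 reads per read of osa-miR444b.1 in SWH, 0.484 in SCG, 0.526 in TWH and 0.630 in TCG. The ratio was lower in each WH library than in its CG library, by a log2 difference of -0.07 (-0.14 to -0.00) for SWH vs SCG and -0.26 (-0.33 to -0.19) for TWH vs TCG.

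The main sequence of register 2 behaved otherwise. This sequence, osa-miR444a-3p.2, had normalised counts of 2008 in SWH and 2131 in SCG, and of 2947 in TWH and 3851 in TCG. Both L6 libraries lay below both DBA Aurora libraries. hvu-miR444b from chromosome 7 had normalised counts of 503 in SWH, 509 in SCG, 502 in TWH and 686 in TCG, so that only TCG stood apart. osa-miR444f_1ss12CT, register 2 of the chromosome 2 loci, had normalised counts of 337 in SWH, 190 in SCG, 338 in TWH and 406 in TCG, with SCG lowest. The 3 most abundant sets, osa-miR444b.1, osa-MIR444c-p3 and osa-miR444a-3p.2, held 89.2% of the family's reads in SWH, 89.8% in SCG, 89.3% in TWH and 86.9% in TCG, with each set counted once.

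Of the members that start before register 2, osa-MIR444b-p5 had normalised counts of 360 in SWH, 295 in SCG, 355 in TWH and 383 in TCG. tae-MIR444b-p3, from the loci inside genes on 6A and 6B, had normalised counts of 70.7 in SWH, 33.3 in SCG, 98.4 in TWH and 135 in TCG, with both L6 libraries below both DBA Aurora libraries. hvu-MIR444b-p5 had normalised counts of 55.1 in SWH, 19.1 in SCG, 28.4 in TWH and 43.5 in TCG. The shortened register 2 form osa-miR444a-3p.2_R-1 had normalised counts of 30.0 in SWH, 50.0 in SCG, 44.5 in TWH and 55.9 in TCG, lowest in SWH. The shared tae-MIR444b-p5 set had normalised counts of 22.8 in SWH, 26.6 in SCG, 36.9 in TWH and 42.4 in TCG, with both L6 libraries below both DBA Aurora libraries.

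The remaining 5 members were close to the recording floor. The deposited table holds hardly any value under 5 reads, which corresponds to normalised counts of 4.16 to 5.99 depending on the library. The bdi-MIR444b-p3 set had 7 reads in SWH, 25 in SCG, 11 in TWH and 8 in TCG, highest in SCG. osa-miR444a-3p.2_2ss12CT20TC had 18 reads in SWH, 7 in SCG, 7 in TWH and 12 in TCG, and it matched none of the listed loci exactly. osa-MIR444a-p5 had 7 reads in SWH, 21 in SCG, 12 in TWH and 0 in TCG. osa-MIR444d-p5 was recorded in SCG alone, with 6 reads. Apart from osa-MIR444a-p5 and osa-MIR444d-p5, all 18 members were recorded in all 4 libraries.

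**Figure D2:**
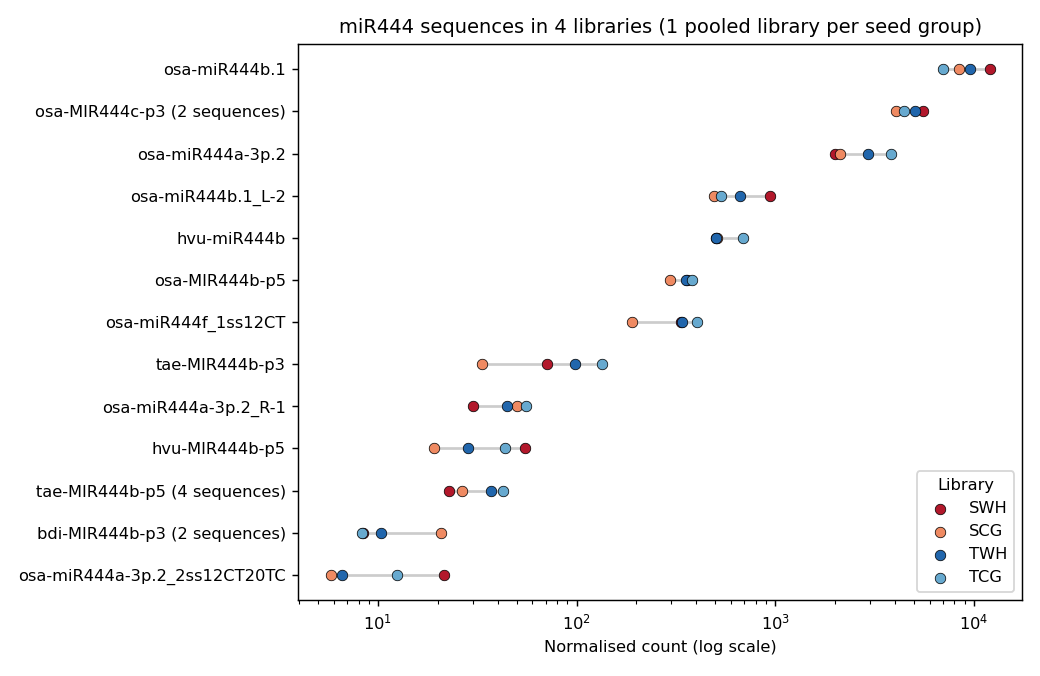
Normalised count (log scale) of the 13 sets of miR444 read numbers with a mean of at least 10, 1 point per library (SWH, SCG, TWH, TCG). The top line is osa-miR444b.1, at 12021 in SWH, 8412 in SCG, 9595 in TWH and 7045 in TCG, and osa-miR444a-3p.2 shows both L6 libraries left of both DBA Aurora libraries.

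The family took 2.68% of all miRNA reads in SWH (exact binomial 95% interval 2.65 to 2.72) and 1.90% in SCG (1.88 to 1.92), and 2.39% in TWH (2.37 to 2.42) and 2.16% in TCG (2.13 to 2.19). Each WH library was above its CG library, by more than counting error. With sets of shared read numbers counted once throughout the table, a choice made after seeing the data, the shares were 2.19% in SWH, 1.54% in SCG, 1.93% in TWH and 1.75% in TCG, in the same order. Without osa-miR444b.1 they were 1.51% in SWH, 1.12% in SCG, 1.47% in TWH and 1.47% in TCG, and TWH and TCG no longer differed at this rounding.

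Of the 15 sets of read numbers, 13 matched loci on the A and B copies of 1 chromosome and were summed by chromosome. osa-MIR444d-p5, which matched 2A, 2B and 7A, and osa-miR444a-3p.2_2ss12CT20TC, which matched no listed locus, were left out. The 5 sets of chromosomes 2A and 2B summed to normalised counts of 19197 in SWH and 13461 in SCG, a log2 fold change of 0.51 (0.48 to 0.54), and to 16004 in TWH and 12810 in TCG, a log2 fold change of 0.32 (0.29 to 0.35). The 5 sets of 6A and 6B summed to 2140 in SWH and 2259 in SCG, and to 3138 in TWH and 4083 in TCG. Their log2 fold change was -0.08 (-0.17 to 0.01) for SWH vs SCG and -0.38 (-0.45 to -0.31) for TWH vs TCG. The 3 sets of 7A and 7B summed to 567 in SWH and 549 in SCG, and to 540 in TWH and 738 in TCG, which left TCG alone above the rest. As a share of the family's reads, chromosome 2 sequences made up 87.6% in SWH, 82.7% in SCG, 81.3% in TWH and 72.6% in TCG, and chromosome 6 sequences 9.76% in SWH, 13.9% in SCG, 15.9% in TWH and 23.1% in TCG. These groups were formed after the values had been seen and are given as a description.

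**Figure D3:**
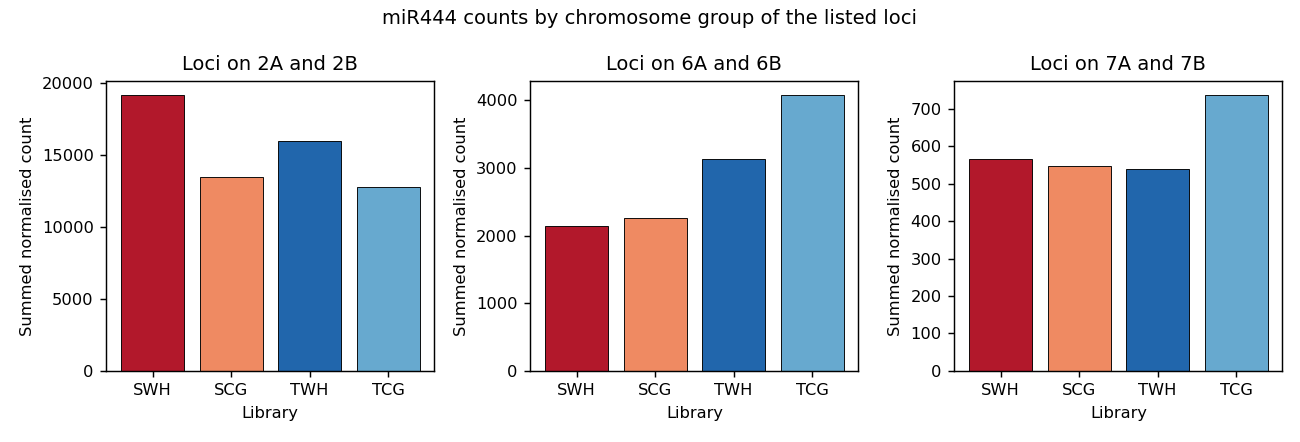
Summed normalised counts of the miR444 sets that match loci on 2A and 2B (5 sets), 6A and 6B (5 sets) and 7A and 7B (3 sets), 1 bar per library in each panel, each axis starting at 0. The chromosome 2 group is highest in SWH (19197), and the chromosome 6 group is highest in TCG (4083).

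The ratio of registers was then read within each library, where no scaling between libraries enters. osa-miR444b.1 had 5.99 reads per read of osa-miR444a-3p.2 in SWH (95% counting interval 5.68 to 6.31) and 3.95 in SCG (3.78 to 4.12). In DBA Aurora the ratio was 3.26 in TWH (3.13 to 3.39) and 1.83 in TCG (1.76 to 1.90). No 2 of these intervals overlap, and the ratio was higher in each WH library than in its CG library and higher in each L6 library than in its DBA Aurora counterpart. The difference of log2 ratios was 0.60 (0.50 to 0.70) for SWH vs SCG and 0.83 (0.75 to 0.91) for TWH vs TCG. Between genotypes it was 1.11 (1.02 to 1.19) for SCG vs TCG and 0.88 (0.78 to 0.97) for SWH vs TWH.

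These 2 sequences come from different loci, so the ratio sets chromosome 2 against chromosome 6 as well as register 1 against register 2. Within the chromosome 2 loci, where osa-miR444b.1 and osa-miR444f_1ss12CT overlap on 1 arm, osa-miR444b.1 had 35.7 reads per read of osa-miR444f_1ss12CT in SWH, 44.3 in SCG, 28.4 in TWH and 17.4 in TCG. The difference of log2 ratios was then -0.31 (-0.57 to -0.06) for SWH vs SCG, the opposite direction, and 0.71 (0.50 to 0.92) for TWH vs TCG. Hence the higher ratio in WH was seen in both genotypes between loci, but only in the DBA Aurora pair within the chromosome 2 loci.

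**Figure D4:**
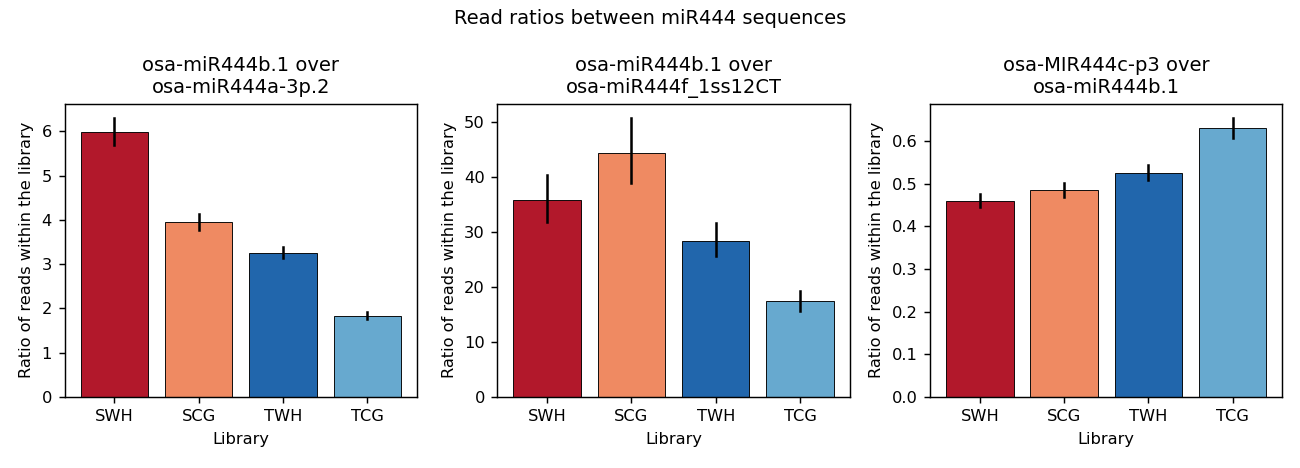
Ratios of reads within each library for 3 pairs of miR444 sequences, with 95% counting intervals as black lines and axes starting at 0. The first panel runs at 5.99 (SWH), 3.95 (SCG), 3.26 (TWH) and 1.83 (TCG), while in the second, within the chromosome 2 loci, SCG is highest at 44.3.

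The first comparison asks whether stress on the parents went with other miR444 levels in the seedlings of the sensitive line. In SWH vs SCG osa-miR444b.1 had a log2 fold change of 0.51 (0.47 to 0.56) and osa-miR444b.1_L-2 of 0.95 (0.79 to 1.11), while osa-miR444a-3p.2 had -0.09 (-0.18 to 0.00) and hvu-miR444b -0.01 (-0.20 to 0.17). A sequence was called where the chi-squared and Fisher's exact tests both gave p under 0.05 and the log2 fold change exceeded 1 in size. By that rule 3 of 20 members were higher in SWH, against 7.47% of all 1967 sequences tested, and 2 were lower, against 11.9%. The higher ones were tae-MIR444b-p3 with 1.09 (0.48 to 1.70), hvu-MIR444b-p5 with 1.53 (0.77 to 2.32) and osa-miR444a-3p.2_2ss12CT20TC with 1.89 (0.56 to 3.39), and the lower ones the 2 sequences of the bdi-MIR444b-p3 set with -1.31 (-2.76 to -0.06). After Benjamini-Hochberg adjustment over all sequences 3 of these 5 calls were left, or 3 of 20 members against 7.98% of all sequences. The bdi-MIR444b-p3 set had an adjusted Fisher's exact p of 0.103. The abundant members did not reach the fold criterion. On p alone, 9 members were higher in SWH (12.3% of all sequences) and 3 were lower (16.8%). The median log2 fold change was -0.01 over members and 0.36 over their different sets of read numbers, beside -0.00 over all sequences.

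The same question was then put to the tolerant genotype. In TWH vs TCG osa-miR444b.1 had a log2 fold change of 0.45 (0.40 to 0.49), osa-miR444b.1_L-2 of 0.32 (0.16 to 0.49), osa-miR444a-3p.2 of -0.39 (-0.46 to -0.32) and hvu-miR444b of -0.45 (-0.62 to -0.29). Among 19 members tested 1 was called higher in TWH, against 10.8% of 1977 sequences, and 0 lower, against 11.2%. The called member was osa-MIR444a-p5, with 12 reads in TWH and 0 in TCG. Set against the recording floor of 5 reads its log2 fold change was at least 1.13. On p alone, 5 members were higher (15.9% of all sequences) and 4 lower (18.4%). The median was -0.20 over members and -0.26 over sets, beside -0.04 over all sequences.

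Between genotypes, the seedlings of control parents gave calls in both directions. In SCG vs TCG osa-miR444a-3p.2 had a log2 fold change of -0.85 (-0.93 to -0.78) and osa-miR444b.1 of 0.26 (0.21 to 0.30). Members called lower in SCG numbered 3 of 20, against 15.9% of 2039 sequences, and members called higher also 3, against 14.3%. tae-MIR444b-p3 with -2.01 (-2.56 to -1.49), hvu-MIR444b-p5 with -1.18 (-1.98 to -0.42) and osa-miR444f_1ss12CT with -1.10 (-1.34 to -0.86) were lower. The bdi-MIR444b-p3 set (2 sequences) with 1.33 (0.14 to 2.69) and osa-MIR444a-p5, with 21 reads in SCG and 0 in TCG and a log2 fold change of at least 1.76, were higher. With shared read numbers counted once, 2 of 15 sets were higher and 3 lower (273 and 264 of all 1823 sets). At an adjusted p under 0.05, 1 of 20 members was higher and 3 lower (233 and 261 of all 2039 sequences). On p alone, 4 members were higher (19.7% of all sequences) and 9 lower (23.8%). The median log2 fold change of the members recorded in both libraries was -0.55, or -0.43 over the different sets of read numbers, beside -0.05 over all sequences.

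In the seedlings of stressed parents fewer members were called between genotypes. In SWH vs TWH osa-miR444a-3p.2 had a log2 fold change of -0.55 (-0.64 to -0.47), osa-miR444b.1 of 0.33 (0.29 to 0.37) and osa-miR444b.1_L-2 of 0.50 (0.36 to 0.65). hvu-miR444b, with 0.01 (-0.18 to 0.19), and osa-miR444f_1ss12CT, with -0.00 (-0.23 to 0.22), had intervals that included 0. The only call among 19 members was osa-miR444a-3p.2_2ss12CT20TC, higher in SWH by 1.70 (0.38 to 3.21), against 12.0% of 1985 sequences called higher and 17.7% called lower. On p alone, 6 members were higher (18.5% of all sequences) and 1 lower (24.3%). The median was -0.31 over members and 0.00 over sets, beside -0.00 over all sequences. Each library enters 2 of the 4 comparisons, which are therefore not independent of each other, and whether the calls differ in number between comparisons was not tested.

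**Figure D5:**
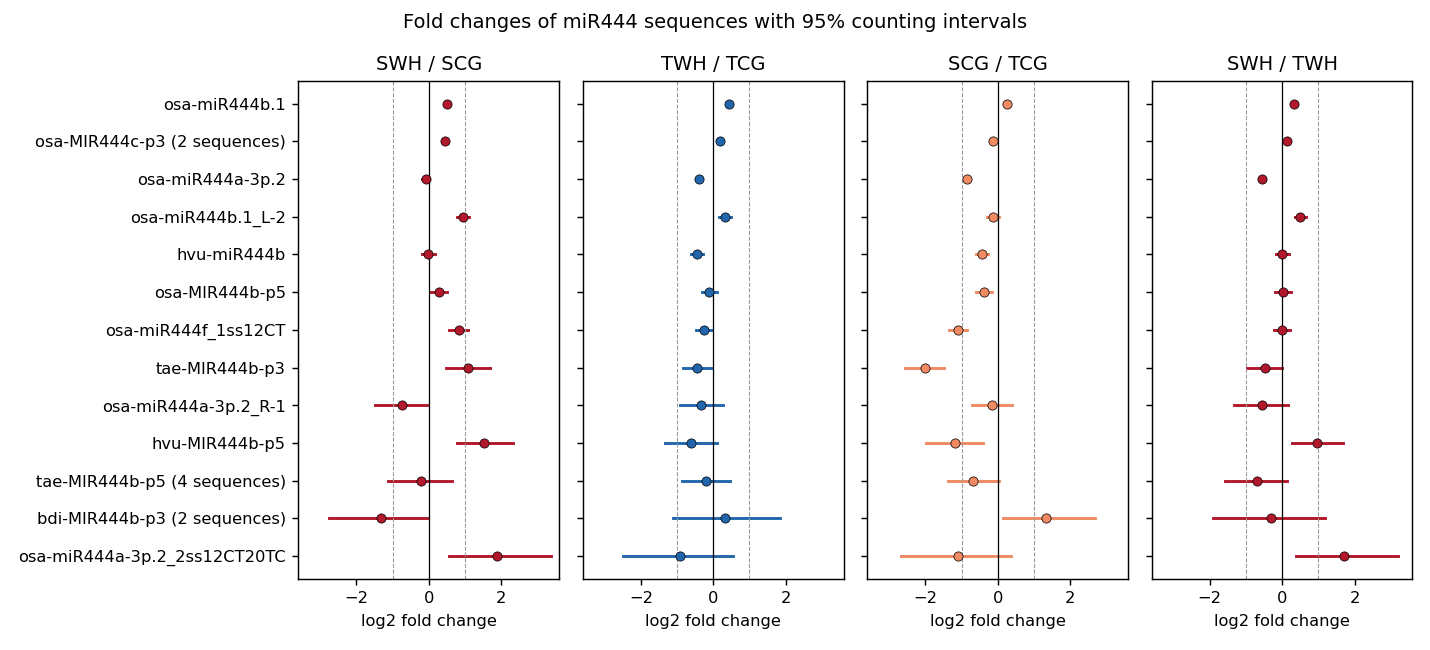
Log2 fold changes of the 13 miR444 sets whose counts averaged at least 10, in SWH / SCG, TWH / TCG, SCG / TCG and SWH / TWH, with 95% counting intervals as horizontal lines and dashed lines at a log2 of 1 in either direction. osa-miR444b.1 lies right of 0 in every panel, at 0.51, 0.45, 0.26 and 0.33, and intervals widen toward the rare members at the bottom.

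A fit over all 4 libraries with edgeR's quasi-likelihood test, with genotype and parent treatment as terms, treats the pair of libraries at each level as replicates and leaves 1 residual degree of freedom. It covered 1258 sequences, 18 of them members. For parent treatment 0 members were called at an adjusted p under 0.05, and 0 of all sequences (0% called). At an unadjusted p under 0.05 there were 2 members, both higher in WH, against 1.59% of all sequences. These were osa-miR444b.1 with a log2 fold change of 0.54 (SE 0.13, edgeR adjusted p = 0.997) and osa-miR444b.1_L-2 with 0.69 (SE 0.23, adjusted p = 0.997), each higher in WH in both genotypes. DESeq2 and limma also called 0 members for parent treatment.

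For genotype, 0 members were called by edgeR, against 1 of all sequences (0.0795%), and 1 member had an unadjusted p under 0.05, against 13.8% of all sequences. It was osa-miR444a-3p.2, with a log2 fold change of -0.70 for L6 over DBA Aurora (SE 0.16, edgeR adjusted p = 0.218), lower in L6 at both seed sources. tae-MIR444b-p3 had the larger value of -1.22 (SE 0.45, edgeR adjusted p = 0.355), also lower in L6 at both seed sources. These genotype calls depended on the tool and on the filter. DESeq2 called 1 of 18 members, osa-miR444a-3p.2 (-0.70, adjusted p = 0.0445), and 35 of 1258 sequences in all. Without a filter on low counts edgeR called 2 of 20 members and 138 of 2111 sequences. These members were osa-miR444a-3p.2 (-0.68, adjusted p = 0.00937) and tae-MIR444b-p3 (-1.21, adjusted p = 0.0169). In contrast, limma called 0 members, and 10 or 4 of 1258 sequences with a pseudocount of 1 or 10.

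Other groups of miRNAs were counted by the same rule. Of the nitrogen and phosphate response families miR169, miR393, miR399 and miR827, 3 of 81 sequences tested were called higher in SWH vs SCG (7.47% of all sequences) and 14 lower (11.9%), with a median log2 fold change of -0.21. In TWH vs TCG 14 of 74 were called higher (10.8% of all) and 3 lower (11.2%), with a median of 0.16. In SCG vs TCG 33 of 81 were called higher (14.3% of all) and 7 lower (15.9%), with a median of 0.51. In SWH vs TWH 16 of 78 were called higher (12.0% of all) and 15 lower (17.7%), with a median of 0.19. Of the grass or monocot families miR437, miR528, miR1432 and miR5200, set against the same shares of all sequences, 0 of 34 were called higher and 6 lower in SWH vs SCG (median -0.20), and 8 of 34 higher and 1 lower in TWH vs TCG (median -0.08). Between genotypes 7 of 35 were called higher and 2 lower in SCG vs TCG (median -0.02), and 0 of 34 higher and 10 lower in SWH vs TWH (median 0.12). The sequences most like osa-miR444b.1 in their pattern over the 4 libraries, by Euclidean distance of centred log2 values among 314 candidates, were the 4 gra-MIR8645-p5_2ss12TG17AG sequences, which share 1 set of read numbers (distance 0.27), and PC-5p-6528_235 (0.28). With 4 libraries many sequences can be alike by this measure.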

How the data were processed

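Members and lists were chosen with earlier results of these data known. The authors removed adapters, kept reads of 18 to 25 nt, removed reads matching other RNAs, and searched the rest in miRBase and in durum assembly Svevo.v1 with ACGT101-miR (version not given in the sources used here). Deposited raw read numbers are estimated counts, because 104 to 115 of 2174 values per library are not whole (none among members). Their deposited normalised counts, a scaled signal, multiply each library's raw numbers by a single factor. Depth was 855716 to 1293324 miRNA reads.

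Pairs of libraries were tested per sequence on normalised counts, against the sum of all others. Fisher's exact test was two-sided on rounded values. edgeR 4.0.16 (TMM) used rounded reads of sequences averaging at least 10 normalised counts, with DESeq2 1.42.0 and limma 3.58.1 (pseudocounts 1 and 10) as alternatives. An SE printed with an edgeR value is the size of the log2 fold change over the square root of the test's F value. Tests were also run on simulated reads with planted changes. For the pairs the simulation held counting error only, so it cannot show how those tests fare with spread between libraries. Named were members with a mean of at least 10, and rarer ones called in a pair or recorded in 1 library. Arms were paired with ViennaRNA 2.7.2. Chromosome names were matched by order to a RefSeq gene table of Svevo.v1, which cannot separate chromosomes of like length. Other alternatives were p under 0.01, adjusted p, no fold criterion, TMM scaling in the pair tests and a count minimum of 10. There was 1 library per group, so none was left out.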

Additional observations from a re-analysis of the deposited data

Results flagged for a closer look

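For 2 members the WH over CG log2 fold change had opposite signs in the 2 genotypes, with counting intervals that exclude 0 in each. osa-miR444f_1ss12CT, the register 2 sequence of the chromosome 2 loci, had 0.83 in SWH vs SCG and -0.26 in TWH vs TCG. tae-MIR444b-p3, from the loci inside genes on 6A and 6B, had 1.09 in SWH vs SCG and -0.45 (-0.84 to -0.07) in TWH vs TCG. In both cases SCG was the lowest of the 4 libraries and TCG the highest. The difference between genotypes was not tested, since 1 library per seed group leaves no spread to test it against. Of the 18 members recorded in all 4 libraries, 7 had opposite signs in the 2 genotypes, most of them within counting error in at least 1 pair. The 2 members above were picked from these 18, and their intervals are not adjusted for the number searched.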

How the results depend on the processing

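No paired analysis was possible because each seed group has 1 library and the labels give no replicate numbers. Pairs are given here in the order SWH vs SCG, TWH vs TCG, SCG vs TCG, SWH vs TWH. The members called were the same in number with TMM scaling and with a count minimum of 10. That minimum was put on the calls only, and the number tested still included sequences under it. So counted, 7.37%, 9.46%, 18.5% and 13.2% of all sequences tested were called. These are not shares of the sequences that meet the minimum. With shared read numbers counted once 4, 1, 5 and 1 sets were called, against 18.9%, 21.9%, 29.5% and 29.7% of all sets. An adjusted p left 3 of 5 in SWH vs SCG (7.98% of all sequences) and 4 of 6 in SCG vs TCG (24.2%). The same numbers were left at p under 0.01 (9.61% and 19.2% of all sequences). Without the fold criterion 12, 9, 13 and 7 members passed, against 29.1%, 34.3%, 43.6% and 42.9% of all sequences. In the fits over 4 libraries, the members at an unadjusted p under 0.05 numbered 2 for parent treatment and 1 for genotype, and for genotype edgeR without a filter called 2 members and DESeq2 called 1. Over all sequences the genotype calls numbered 1 by edgeR, 2 with DESeq2's size factors, 138 of 2111 without a filter, 29 of 1130 with shared read numbers counted once, 35 by DESeq2, and 10 and 4 by limma with pseudocounts of 1 and 10. No member's fitted log2 fold change changed sign in these alternatives.

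The family's share of miRNA reads in SWH, SCG, TWH and TCG was 2.19%, 1.54%, 1.93% and 1.75% with shared read numbers counted once, 2.34%, 1.67%, 2.05% and 1.78% by names in place of distinct sequences, and 1.51%, 1.12%, 1.47% and 1.47% without osa-miR444b.1. The log2 register ratio, at 2.58, 1.98, 1.70 and 0.87 in the same libraries, was 2.16, 1.63, 1.42 and 0.60 from the sums of each register and 5.16, 5.47, 4.83 and 4.12 within the chromosome 2 loci, where SCG is above SWH. Counts near 5 reads limit osa-MIR444a-p5, osa-MIR444d-p5, osa-miR444a-3p.2_2ss12CT20TC and the bdi-MIR444b-p3 set.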
